A study of Canis lupus familiaris with 29 samples.

Results

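The genes described here are 10 whose inherited or somatic mutations predispose to human pheochromocytoma and paraganglioma (PPGL), the tumors of adrenal chromaffin cells and of the related paraganglia. They are SDHA, SDHB, SDHC, SDHAF2, FH, VHL, NF1, MAX, TMEM127 and MEN1. They were chosen by gene name, each name was found once, and together they make up 10 of the 30951 genes in the count table. Of those 30951 genes, 24051 had a count in at least 1 sample.

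RNA was sequenced from normal adrenal medullas (NAM, n = 10) and from PPGLs of pet dogs, mostly pheochromocytomas (n = 19), with each tumor from a different dog. The authors divided the tumors into PPGL group 1, with 7 tumors, and PPGL group 2, with 12, by a principal component analysis of these samples, after leaving out tumors that stood apart in it. A test between the tumor groups therefore describes a split drawn from the same data. The NAMs came from as many healthy dogs, and breed, age and sex were not used here.

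The total count per sample ran from 19258054 to 35918182 in NAMs, from 18493540 to 31919833 in group 1 and from 18208718 to 24569667 in group 2. The lowest count of any of the 10 genes in any sample was 192, for MEN1 in group 2 tumor 12, so every gene was measured in every sample. All 10 passed the filter on low counts in each comparison.

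In human families these genes fall into a few roles. SDHA, SDHB and SDHC encode subunits of mitochondrial complex II, SDHAF2 helps to assemble it, and FH encodes the enzyme that takes up its product in the tricarboxylic acid (TCA) cycle; VHL marks hypoxia-inducible factors (HIF) for destruction, and loss of any of these is known to let HIF signaling rise in chromaffin tumors. NF1, TMEM127 and MAX restrain or shape growth signaling through RAS, mTORC1 and MYC, and MEN1 encodes menin, a scaffold for chromatin complexes whose loss causes endocrine tumors.

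Levels are given as CPM, the usual scaling of counts to library size, after TMM normalization, and differences as log2 fold changes (log2 FC) with the 95% confidence interval (CI) and the p value adjusted for the false discovery rate (FDR) over all genes tested. A gene was called higher or lower at an FDR-adjusted p below 0.05 against NAM, and below 0.1 between the tumor groups. Positions are on the dog genome build CanFam3.1.

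The samples were checked against markers of chromaffin cells. Of 12 markers, 11 were found (CHGA was not found by name), and none of those was at 0 in every sample. Their summed level had a median of 30810 CPM in NAMs (16380 to 92990), 32600 in group 1 (8720 to 118900) and 43440 in group 2 (19290 to 98030), so the groups overlapped. Of the 11, 3 were called higher and 1 lower in PPGLs than in NAMs. The most abundant was CHGB, with a mean of 26730 CPM in NAMs (SD 16180, n = 10), 28950 in group 1 (SD 34240, n = 7) and 34010 in group 2 (SD 24520, n = 12). Without tumor 4 the group 1 mean of CHGB was 18630 CPM. The sum does not show single genes, of which the following were chosen after their values were seen. PNMT, which makes epinephrine, ran from 1602 to 4767 CPM in NAMs, from 11.6 to 5827 in group 1 and from 62.6 to 889.9 in group 2, all of whose tumors lay below every NAM. In single tumors, TH was at 2.15 CPM in group 1 tumor 5, DDC was at 0.285 CPM in group 1 tumor 3, and CHGB was at 27.1 CPM in group 1 tumor 7. Other markers were higher in tumors. PHOX2A ran from 70.2 to 206.3 CPM in NAMs and from 243.6 to 910.2 in PPGLs, so every tumor lay above every NAM. The median of SYP was 188.5 CPM in NAMs and 402.9 in PPGLs, and that of HAND2 was 89.1 and 214.3.

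Levels of different genes were compared per kilobase of exon length. Their spread over the samples is given as a description, and differences between genes within a sample were not tested. In NAMs SDHA was the highest at a mean of 158 CPM per kilobase (SD 18.4), followed by SDHC at 97.3 (SD 25.9) and FH at 67.0 (SD 14.1). VHL at 43.6 (SD 5.01), SDHB at 43.5 (SD 14.2) and TMEM127 at 41.9 (SD 3.05) did not differ beyond their spread. SDHAF2 stood at 28.1 (SD 2.59), above MEN1 at 17.2 (SD 1.61) and MAX at 15.8 (SD 2.54), which did not differ beyond their spread, and NF1 was the lowest at 10.8 (SD 1.78). In PPGLs the highest was again SDHA at 95.9 CPM per kilobase (SD 30.2) and the lowest NF1 at 12.3 (SD 2.83). Between them VHL at 56.4 (SD 18.3), SDHC at 54.3 (SD 13.4) and FH at 43.7 (SD 11.9) lay within their spread of each other, as did SDHB at 31.9 (SD 14.0), TMEM127 at 31.1 (SD 5.39), SDHAF2 at 26.2 (SD 8.13) and MAX at 24.0 (SD 9.84). MEN1 stood at 16.8 (SD 7.87), and its spread overlapped that of MAX. NF1 and MEN1 did not differ beyond their spread in PPGLs, and in group 2 their means were 12.07 and 12.95 CPM per kilobase.

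**Figure D1:**
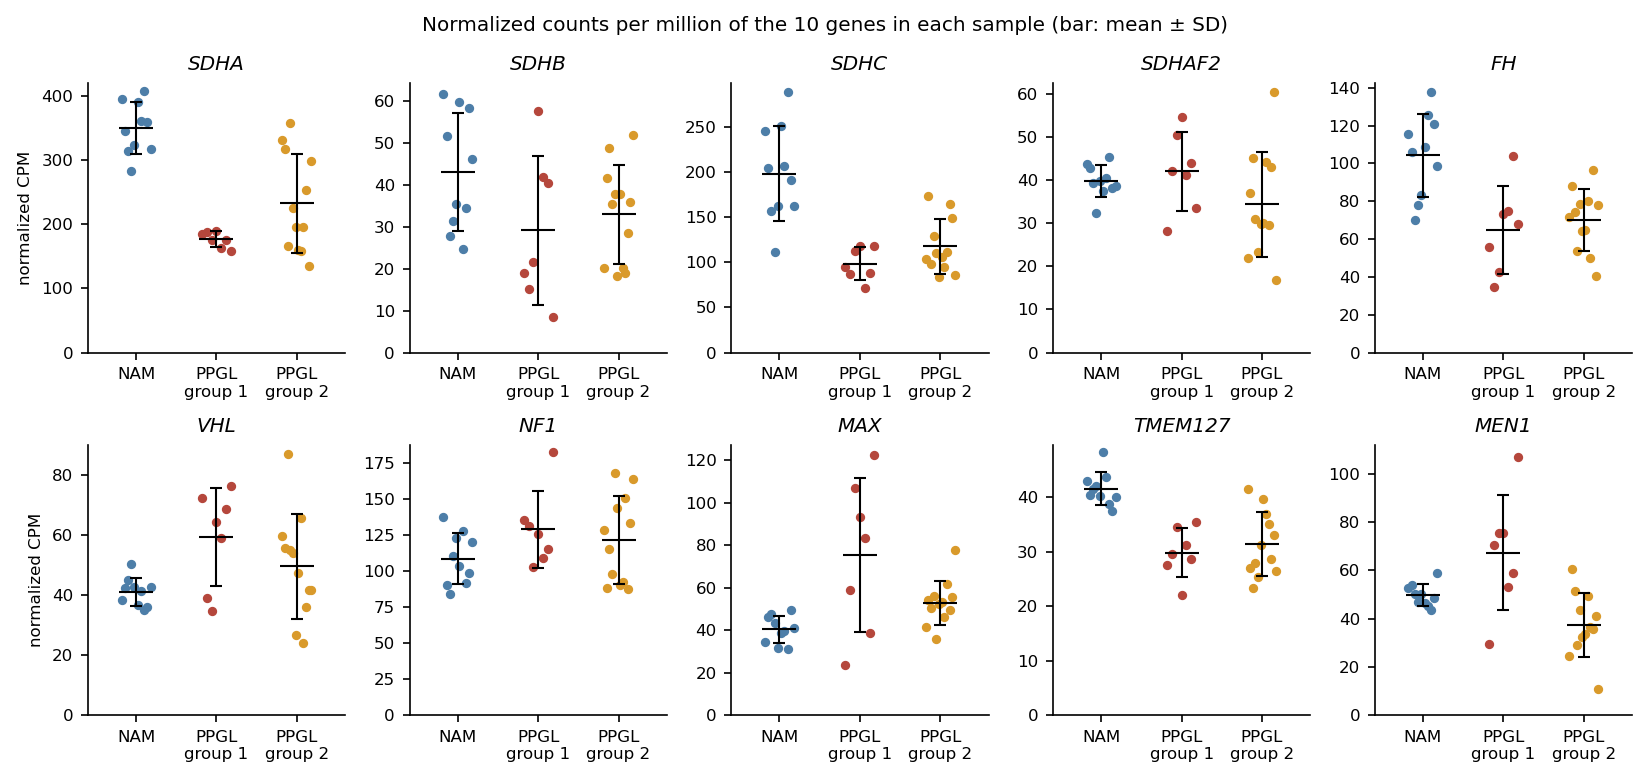
Level of each of the 10 genes in every sample, in TMM-normalized CPM (y axis, from 0), for 10 NAMs, the 7 tumors of PPGL group 1 and the 12 of PPGL group 2; each point is 1 sample, and the bars are the mean and SD of the group. SDHA and TMEM127 lay below every NAM in 15 and 17 of the 19 tumors, while MAX lay above every NAM in 14.

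The comparison of all PPGLs with NAM asks how the tumors differ from the samples of normal adrenal medulla. Of the 10 genes, 4 were called lower and 1 higher. Of all 14766 genes tested, 15.2% were called lower and 22.3% higher. The count of genes called higher was below that background share and is not a result about the 10 genes. The median log2 FC was −0.27 over the 10 genes and 0.13 over all genes tested. With 10 genes, such counts are a description only. Of the 5 calls, those of SDHA, SDHC, FH and MAX were lost when a score of adrenal cortex RNA was a covariate, with log2 FCs of −0.25, −0.53, −0.32 and 0.12. Many genes left the range of the NAMs: in the median tumor 27.98% of all genes tested lay below every NAM and 28.04% above every NAM.

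SDHA (ENSCAFG00000010951, chromosome 34, 11935941 to 11965189) encodes the flavoprotein subunit of complex II, which oxidizes succinate. Its level in NAMs ran from 283 to 407 CPM with a median of 352, in group 1 from 158 to 189.8 with a median of 176, and in group 2 from 134 to 358 with a median of 210.4. All 7 tumors of group 1 and 8 of the 12 tumors of group 2 lay below every NAM, and the other group 2 tumors (1, 2, 4 and 12) lay within the range of the NAMs. The log2 FC in PPGLs was −0.72 (95% CI −1.01 to −0.43, FDR-adjusted p = 0.00025). In bulk samples, fewer cells of a type and less RNA per cell cannot be told apart.

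SDHC (ENSCAFG00000012992, chromosome 38, 21162421 to 21200333) encodes a subunit that anchors the complex in the inner membrane. It ran from 112 to 288 CPM in NAMs with a median of 198, from 71.9 to 118 in group 1 with a median of 94.3, and from 83.6 to 173 in group 2 with a median of 108. Every one of the 19 tumors lay below the NAM median and 11 lay below every NAM. NAM 4 had the lowest level among the NAMs, and 8 tumors reached into the NAM range. The log2 FC was −0.84 (95% CI −1.13 to −0.56, FDR-adjusted p = 4.0e-05), the largest in size among the 10 genes in this comparison.

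SDHB (ENSCAFG00000015832, chromosome 2, 81158291 to 81190109) encodes the iron-sulfur subunit that passes electrons on from SDHA. It ran from 24.7 to 61.8 CPM in NAMs with a median of 40.8, from 8.49 to 57.8 in group 1 with a median of 21.6, and from 18.2 to 51.8 in group 2 with a median of 35.7. The groups overlapped widely, with 8 of 19 tumors below every NAM and none above, and the lowest was group 1 tumor 7. The log2 FC was −0.45 with a 95% CI that reached 0 (−0.93 to 0.03, FDR-adjusted p = 0.131), so no difference was shown.

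The balance of the subunits was compared as ratios of CPM per kilobase within a sample. The ratio of SDHB to SDHA had a median of 0.286 in NAMs (0.153 to 0.362), 0.274 in group 1 (0.120 to 0.678) and 0.289 in group 2 (0.136 to 0.660). The medians lay close together while the tumors spread more widely on either side, from group 1 tumor 7 at the lowest to group 1 tumor 4 at the highest. The ratio of SDHC to SDHA had a median of 0.599 in NAMs (0.429 to 0.768) and 0.595 in all PPGLs (0.313 to 1.20), with both ends of the PPGL range in group 2, in tumors 12 and 11. The ratio of SDHB to SDHC had a median of 0.503 in NAMs (0.245 to 0.625), 0.411 in group 1 (0.147 to 1.19) and 0.496 in group 2 (0.349 to 1.24).

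SDHAF2 (ENSCAFG00000030303, chromosome 18, 54971658 to 54987394) encodes the assembly factor that attaches the flavin to SDHA. It ran from 32.4 to 45.4 CPM in NAMs with a median of 39.7, from 28.3 to 54.8 in group 1 with a median of 42.2, and from 16.9 to 60.6 in group 2 with a median of 30.6. Tumors fell on either side of the NAMs, with 8 below every NAM, 7 of them in group 2, and 3 above every NAM. The log2 FC of −0.10 (95% CI −0.41 to 0.21, FDR-adjusted p = 0.637) summed up tumors that moved in opposite directions.

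FH (ENSCAFG00000015704, chromosome 7, 32901586 to 32927412) encodes fumarate hydratase. Its level ran from 69.95 to 138 CPM in NAMs with a median of 107.5, from 34.7 to 104 in group 1 with a median of 68.1, and from 40.6 to 96.3 in group 2 with a median of 73.1. All 19 tumors lay below the NAM median and 9 lay below every NAM, 4 in group 1 and 5 in group 2. In PPGLs FH had a log2 FC of −0.62 (95% CI −0.92 to −0.32, FDR-adjusted p = 0.0017).

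VHL (ENSCAFG00000044690, chromosome 20, 8206616 to 8211323) encodes the part of a ubiquitin ligase that recognizes HIF. It ran from 35.1 to 50.5 CPM in NAMs with a median of 41.8, from 34.6 to 76.4 in group 1 with a median of 64.4, and from 23.9 to 86.8 in group 2 with a median of 50.7. High and low tumors occurred in both groups: 11 lay above every NAM, while group 1 tumor 3 and group 2 tumors 6 and 9 lay below every NAM. The log2 FC was 0.37 (95% CI 0.04 to 0.71, FDR-adjusted p = 0.0731) and was not called. It was called without group 2 tumor 6 (0.41, FDR-adjusted p = 0.0363), without group 2 tumor 9 (0.42, FDR-adjusted p = 0.0287) and when scaled by library totals only (0.43, FDR-adjusted p = 0.0463, in a range of 0.0463 to 0.718 over its alternatives).

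NF1 (ENSCAFG00000018592, chromosome 9, 41469416 to 41679382) encodes neurofibromin, which turns RAS off. It ran from 84.0 to 137 CPM in NAMs, from 103 to 183 in group 1 and from 87.6 to 168 in group 2, and the groups overlapped, with 5 tumors above every NAM and none below. Its log2 FC in PPGLs was 0.19 (95% CI −0.06 to 0.45, FDR-adjusted p = 0.218).

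MAX (ENSCAFG00000016212, chromosome 8, 39380686 to 39465959) encodes the partner with which MYC and MXD proteins bind DNA. It ran from 31.0 to 49.3 CPM in NAMs with a median of 40.3, from 23.7 to 122 in group 1 with a median of 83.3, and from 35.96 to 77.7 in group 2 with a median of 52.7. Above every NAM lay 14 of the 19 tumors, 5 in group 1 and 9 in group 2, and only group 1 tumor 1 lay below every NAM. The log2 FC was 0.60 (95% CI 0.21 to 0.99, FDR-adjusted p = 0.0142), and MAX was the gene called higher in PPGLs, a call that was lost with the cortex score as a covariate, where the log2 FC was 0.12.

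TMEM127 (ENSCAFG00000006783, chromosome 17, 34512792 to 34523692) encodes a membrane protein of endosomes and lysosomes that restrains mTORC1. It ran from 37.5 to 48.3 CPM in NAMs with a median of 41.0, from 22 to 35.5 in group 1 with a median of 29.6, and from 23.4 to 41.6 in group 2 with a median of 29.98. Below every NAM lay 17 of the 19 tumors, and the exceptions, group 2 tumors 1 and 7, lay within the NAM range. The log2 FC was modest in size at −0.43 (95% CI −0.62 to −0.24, FDR-adjusted p = 0.00079), and the gene varied little within either tissue.

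MEN1 (ENSCAFG00000014185, chromosome 18, 52346933 to 52353340) ran from 43.4 to 59.1 CPM in NAMs with a median of 49.4, from 29.7 to 107 in group 1 with a median of 70.6, and from 10.8 to 60.5 in group 2 with a median of 36.01. Tumors left the NAM range on both sides: 9 lay below every NAM, 8 of them in group 2, and 5 lay above, 4 of them in group 1. The log2 FC of all PPGLs was −0.04 (95% CI −0.49 to 0.41, FDR-adjusted p = 0.908). It moved to −0.72, still not called, with the cortical score (a measure of adrenal cortex RNA) as a covariate (FDR-adjusted p = 0.0658, range over its alternatives 0.0658 to 0.979).

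**Figure D2:**
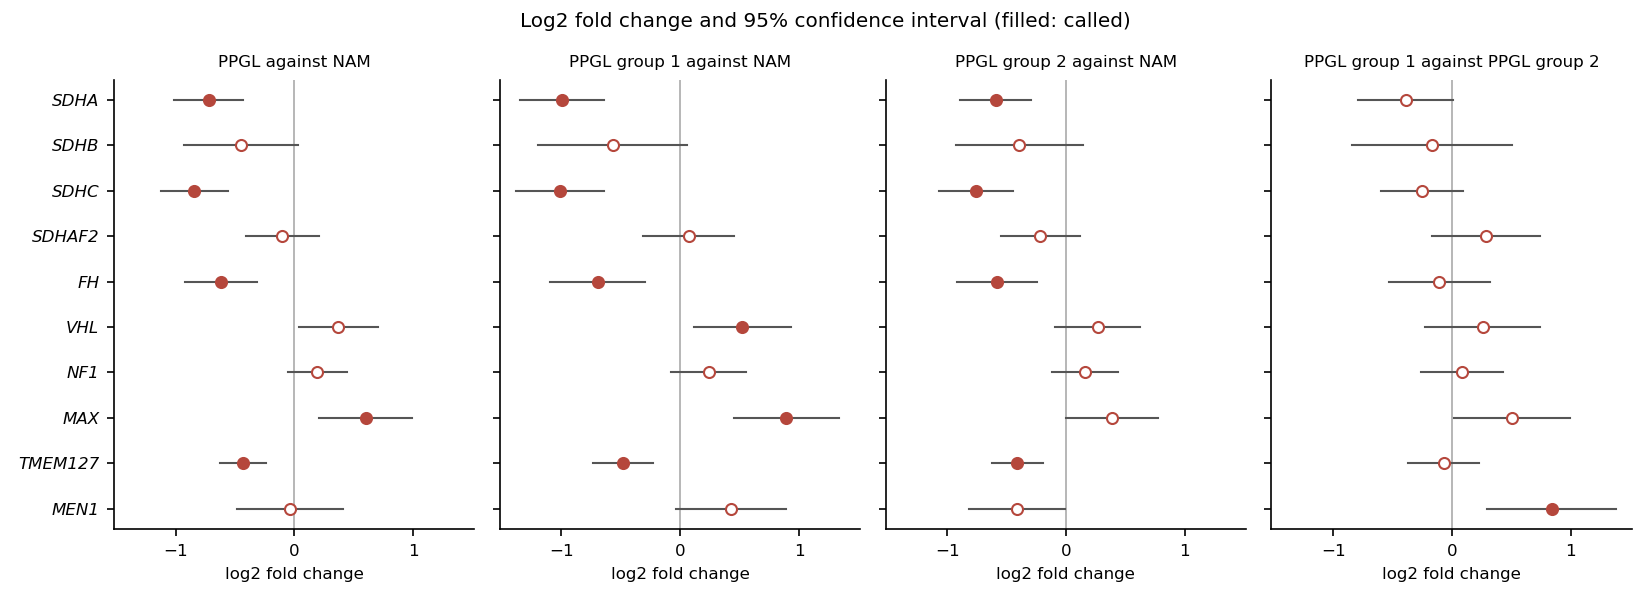
Log2 fold change of each of the 10 genes (x axis) in 4 comparisons (panels), with its 95% confidence interval as a bar; filled points are genes called at the FDR threshold of that comparison. SDHA, SDHC, FH and TMEM127 were called lower in each of the 3 comparisons with NAM, and MEN1 was called higher in PPGL group 1 than in PPGL group 2.

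Each tumor group was also compared with NAM in a fit of the 3 groups. These 2 comparisons share the same NAMs, so their values are given side by side and are not independent. In group 1 against NAM, 4 of the 10 genes were called lower and 2 higher, where 14.1% and 21% of the 15201 genes tested were. In group 2 against NAM, 4 were called lower and 0 higher by edgeR, where 14.5% and 18.4% of all genes were. DESeq2 also called 0 of the 10 higher in group 2, the Mann-Whitney U-test called 1 (MAX), and each of the 5 genes with an unadjusted p below 0.05 in edgeR was lower. The median log2 FC was −0.21 over the 10 genes against 0.13 over all genes in group 1, and −0.40 against 0.09 in group 2.

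Among the complex II genes, SDHA had a log2 FC of −0.99 in group 1 (FDR-adjusted p = 7.4e-05) and −0.59 in group 2 (FDR-adjusted p = 0.0027). For SDHC the values were −1.01 (FDR-adjusted p = 9.2e-05) and −0.76 (FDR-adjusted p = 0.00046). Neither gene kept these calls with the cortical score as a covariate: SDHA was then at 0.32 in group 1, with its sign turned, and −0.12 in group 2, and SDHC at −0.26 and −0.47. SDHB was at −0.57 in group 1 (FDR-adjusted p = 0.153) and −0.39 in group 2 (FDR-adjusted p = 0.256), and it was called in group 1 only when tumor 4 was left out (−0.83, FDR-adjusted p = 0.0382). SDHAF2 was at 0.07 in group 1 (FDR-adjusted p = 0.80) and −0.22 in group 2 (FDR-adjusted p = 0.310). Its sign in group 1 rested on tumor 4, the tumor with the highest level in that group, without which it was at −0.0046. FH was at −0.69 (FDR-adjusted p = 0.0065) and −0.58 (FDR-adjusted p = 0.0082), and it too lost both calls with that covariate, at 0.42 in group 1, with its sign turned, and −0.15 in group 2.

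VHL was called higher in group 1 (0.52, FDR-adjusted p = 0.041) and not in group 2 (0.27, FDR-adjusted p = 0.245), but the difference between the groups, tested directly, was not shown (0.26, 95% CI −0.23 to 0.74, FDR-adjusted p = 0.575). The call in group 1 was lost without any of 5 tumors, with a log2 FC of 0.47 without tumor 1 (FDR-adjusted p = 0.0842), 0.50 without tumor 4 (0.068), 0.52 without tumor 5 (0.0565), 0.48 without tumor 6 (0.0772) and 0.47 without tumor 7 (0.0940), so the fold change stayed close to that with all tumors. It was also lost with no filter on low counts (FDR-adjusted p = 0.0667), by the Mann-Whitney U-test (FDR-adjusted p = 0.163), with a replicate block (log2 FC 0.43, FDR-adjusted p = 0.173) and once the cortex score was a covariate (log2 FC 0.24, FDR-adjusted p = 0.902), in a range of 0.0164 to 0.902 over its alternatives. The block used sample numbers, which do not pair the samples, so the call lost with it says nothing about VHL. Tumors 1, 4, 5, 6 and 7 are those of group 1 whose VHL lay above every NAM. NF1 was at 0.24 in group 1 (FDR-adjusted p = 0.235) and 0.16 in group 2 (FDR-adjusted p = 0.381).

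MAX was called higher in group 1 (0.89, FDR-adjusted p = 0.0019) and not in group 2 (0.39, FDR-adjusted p = 0.117). The Mann-Whitney U-test turned this around, with an FDR-adjusted p of 0.192 in group 1 (range over its alternatives 0.00053 to 0.915) and 0.0089 in group 2 (range 0.0089 to 0.788). The group 1 call was also lost once the cortex score was a covariate (0.24, FDR-adjusted p = 0.915). Group 1 held the lowest and the highest MAX of all tumors, while 11 of 12 group 2 tumors lay moderately above the NAM median. TMEM127 was at −0.48 in group 1 (FDR-adjusted p = 0.0032) and −0.41 in group 2 (FDR-adjusted p = 0.0040). Its call in group 1 was lost when libraries were scaled by their totals only (−0.36, FDR-adjusted p = 0.0647, range over its alternatives 0.00015 to 0.290), and once the cortex score was a covariate, although the log2 FC was then larger in size (−0.80, FDR-adjusted p = 0.290).

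MEN1 moved in opposite directions, at 0.43 in group 1 (FDR-adjusted p = 0.140) and −0.42 in group 2 (FDR-adjusted p = 0.105), and was called in neither. In group 1 it was called without tumor 1 (0.56, FDR-adjusted p = 0.0455), the only tumor of that group below the NAMs. In group 2 it was called without tumor 2 (−0.50, FDR-adjusted p = 0.0490), the only tumor of that group above the NAMs, and by the Mann-Whitney U-test (FDR-adjusted p = 0.0382, range over its alternatives 0.0382 to 0.284).

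The comparison of group 1 with group 2 asks how the tumors on either side of the authors' split differ. MEN1 was called higher in group 1, which makes 1 of the 10 genes where 3.97% of the 14666 genes tested were called higher. None was called lower by edgeR, DESeq2 or the Mann-Whitney U-test, where edgeR called 2.95% of all genes lower. An unadjusted p below 0.05 was reached by 2 of the 10 in edgeR, MEN1 and MAX, both higher in group 1.

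For MEN1 the log2 FC was 0.84 (95% CI 0.30 to 1.38, FDR-adjusted p = 0.0772). Of the 7 group 1 tumors, 6 lay above the group 2 median and 4 (tumors 2, 3, 4 and 7) lay above every group 2 tumor, while tumor 1 lay below the group 2 median. The call rested on single tumors. It was lost without group 1 tumor 2 (FDR-adjusted p = 0.110), 3 (0.112), 4 (0.119) or 7 (0.188), and without group 2 tumor 1 (0.109), 4 (0.120), 6 (0.1005), 7 (0.102) or 10 (0.108). The log2 FC stayed between 0.70 and 0.96 whichever tumor was left out. It was not called by the Mann-Whitney U-test (FDR-adjusted p = 0.151), with a replicate block (log2 FC 0.75, FDR-adjusted p = 0.324) or once the cortex score was a covariate (0.68, FDR-adjusted p = 0.715), in a range of 0.0122 to 0.715 over the alternatives. The block used sample numbers, which do not pair the samples, so the call lost with it says nothing about MEN1.

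MAX was higher in group 1 by 0.50 (95% CI 0.01 to 0.99), but not after adjustment (FDR-adjusted p = 0.242). Of the 7 group 1 tumors, 4 lay above every group 2 tumor and tumor 1 lay below all of them. Without that tumor MAX was called (0.66, FDR-adjusted p = 0.0650). SDHA was lower in group 1 by an amount that was not called (log2 FC −0.39, 95% CI −0.79 to 0.01, FDR-adjusted p = 0.269), and all 7 group 1 tumors lay below the group 2 median. The other 7 genes had log2 FCs from −0.25 (SDHC) to 0.29 (SDHAF2), with FDR-adjusted p values from 0.414 to 0.842.

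RNA of the adrenal cortex varied among these samples along with several of the genes. Of 11 cortex markers 10 were found, 9 of the 10 were called lower in PPGLs than in NAMs, and none was at 0 in every sample. Their summed level ran from 13130 to 64190 CPM in NAMs with a median of 34390, from 36.98 to 1152 in group 1 with a median of 224, and from 219 to 31980 in group 2 with a median of 3441. Cortex markers were thus abundant in every NAM, low in group 1 and spread between these in group 2. The most abundant marker was CYP17A1 in NAMs (mean 11980 CPM, SD 5650) and in group 2 (2428, SD 3238), and STAR in group 1 (343, SD 451). Without the highest tumor these means fell to 1582 in group 2 (without tumor 10) and 212 in group 1 (without tumor 1). A cortical score, the mean log2 CPM of the 10 markers, was 9.94 in NAMs (SD 0.74), 1.11 in group 1 (SD 1.52) and 6.54 in group 2 (SD 1.86).

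The relation of each gene to the cortical score was computed within each group, since the groups differ in the score, which gave 30 relations, 10 of them with r beyond 0.5 in either direction. The p values are 2-sided permutation values, are not adjusted for the number of relations, and describe genes chosen with results known. Among the 10 NAMs, SDHA rose with the score (r = 0.87, permutation p = 0.0011; rho = 0.81, p = 0.0074), and r was 0.84 without the 2 NAMs farthest from the median score. SDHC did so as well (r = 0.88, permutation p = 0.00056; rho = 0.88, p = 0.0016; r = 0.87 without 2), and so did FH (r = 0.83, permutation p = 0.0037; rho = 0.85, p = 0.0028; r = 0.76 without 2). VHL fell as the score rose (r = −0.84, permutation p = 0.0024; rho = −0.84, p = 0.0039; r = −0.84 without 2). In the normal tissue, then, the samples with most cortex RNA had the most SDHA, SDHC and FH and the least VHL.

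Among the 12 tumors of group 2, SDHA again rose with the score (r = 0.67, permutation p = 0.0158; rho = 0.64, p = 0.0302; r = 0.75 without 2). FH had r = 0.57 (permutation p = 0.0562) and rho = 0.71 (p = 0.0127), with r = 0.59 without 2. SDHC, at r = 0.34 (permutation p = 0.278) and rho = 0.26 (p = 0.418), with r = 0.08 without 2, showed no relation there. Among the 7 tumors of group 1, where the score was low throughout, SDHA had r = 0.63 (exact permutation p = 0.115) and rho = 0.64 (exact p = 0.139), with r = 0.99 without 2. SDHC had r = 0.00 in group 1 (exact permutation p = 0.997; rho = −0.18, exact p = 0.713; r = −0.06 without 2). FH had r = 0.32 there (exact permutation p = 0.487; rho = 0.21, exact p = 0.662), which turned to −0.89 without 2, so its sign rested on those tumors. For VHL no relation was shown in the tumors, with r = 0.05 in group 1 (exact permutation p = 0.937; rho = −0.11, exact p = 0.840; r = −0.56 without 2) and r = −0.07 in group 2 (permutation p = 0.838; rho = 0.15, p = 0.635; r = 0.08 without 2). TMEM127 was not related to the score in NAMs (r = 0.13, permutation p = 0.737; rho = 0.05, p = 0.887; r = 0.13 without 2), and in group 1 it had r = −0.62 (exact permutation p = 0.148) and rho = −0.79 (exact p = 0.048), with r = −0.60 without 2. In group 2 it had r = −0.15 (permutation p = 0.644, r = 0.28 without 2). MAX had r = −0.13 in NAMs (permutation p = 0.721, r = −0.56 without 2) and −0.44 in group 1 (exact permutation p = 0.329, r = −0.57 without 2). In group 2 MAX had r = −0.09 (permutation p = 0.786, r = −0.05 without 2). MEN1 had r = −0.42 in NAMs (permutation p = 0.226), which moved to −0.81 without 2.

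With the cortical score as a covariate in PPGL against NAM, TMEM127 was still called lower (log2 FC −0.44, FDR-adjusted p = 0.0313, the largest over its alternatives, which began at 7.4e-06). The other calls were lost, with a log2 FC of −0.25 for SDHA (FDR-adjusted p = 0.296, range over its alternatives 3.7e-06 to 0.296), −0.53 for SDHC (0.0585, range 6.5e-08 to 0.0585), −0.32 for FH (0.289, range 0.00023 to 0.289) and 0.12 for MAX (0.766, range 0.0054 to 0.766). The covariate also lowered the number of all genes called, from 5541 to 2142. In group 2 against NAM, TMEM127 was again the gene still called (−0.53, FDR-adjusted p = 0.0352, range over its alternatives 0.00020 to 0.0428). The scores of NAMs (8.84 to 11.07) and of group 1 (−0.61 to 3.63) did not overlap, so in that comparison tumor and score cannot be told apart. Group 2 scores ran from 2.87 to 9.80, and only tumor 10 lay within the NAM range. Groups 1 and 2 overlapped only through group 1 tumor 6 (3.63) and group 2 tumor 7 (2.87). In the other comparisons, too, group and score can hardly be told apart, for calls kept as for calls lost. The part of cortex RNA in these results was not tested beyond this.

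The level of each gene was set beside that of its neighbors on the chromosome. For each tumor the log2 difference from the NAM mean was taken for all genes tested within 5 Mb on either side, the gene itself left out, and their median was expressed relative to the median of all genes in that tumor. The width was chosen after the values had been seen, no test was made, and what sets the level of neighboring genes was not tested. Neighbors share the library and the tissue mixture of the tumor with the gene.

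The 49 neighbors of SDHA on chromosome 34 had a median below that of all genes in 18 of the 19 tumors, from −0.98 in group 1 tumor 5 to 0.13 in group 2 tumor 2. The 4 tumors whose SDHA lay within the NAM range were among those with neighbors nearest to 0, at −0.03 in group 2 tumor 1, 0.13 in tumor 2, −0.15 in tumor 4 and −0.13 in tumor 12. In some tumors SDHA lay well below its neighbors, at −0.88 against −0.09 in group 1 tumor 2, −1.14 against −0.45 in group 1 tumor 7 and −1.37 against −0.49 in group 2 tumor 11. The Spearman correlation of the gene with its neighbors over the 19 tumors was 0.60.

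The 102 neighbors of TMEM127 on chromosome 17 ran from −0.75 in group 2 tumor 12 to 0.44 in group 1 tumor 7, and lay below 0 in 13 tumors (10 of 12 in group 2 and 3 of 7 in group 1). The tumors whose TMEM127 was within the NAM range, group 2 tumors 1 and 7, had neighbors at 0.02 and 0.14. In group 1, tumors 2, 3, 5 and 7 had neighbors above 0 with TMEM127 itself below every NAM. The Spearman correlation was 0.74.

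SDHAF2 and MEN1 lie near each other on chromosome 18, and their windows, of 200 and 225 genes, overlap, so they are not separate observations. The neighbors of MEN1 lay below 0 in 8 of the 12 group 2 tumors and in 1 of the 7 group 1 tumors, with medians of −0.41 and 0.15 in the groups. They ran from −0.67 in group 2 tumor 6 to 0.40 in group 1 tumor 3. Of the 9 tumors with MEN1 below every NAM, 8 had neighbors at −0.35 or lower, and the exception was group 2 tumor 11 at 0.12. Group 2 tumor 12 had the lowest MEN1 at −2.18 and the lowest SDHAF2 at −1.23, both further down than its neighbors at −0.64 and −0.66. Group 1 tumor 7 had the highest MEN1 at 1.11 with its neighbors at 0.07. The Spearman correlation with neighbors was 0.78 for MEN1 and 0.80 for SDHAF2.

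The neighbors of the other 6 genes had medians over the tumors from −0.17 (SDHC) to 0.25 (VHL). Those of NF1 lay above 0 in all 19 tumors and those of VHL in 18, the exception being group 2 tumor 9, which also had the lowest VHL. For MAX the lowest neighbors were in group 1 tumor 1 at −0.58, the tumor with the lowest MAX. For SDHB the lowest were in group 1 tumor 7 at −0.61, the tumor with the lowest SDHB. For SDHC, FH and NF1 the tumor with the lowest neighbors was not the one with the lowest level of the gene. Gene and neighbors also differed in other tumors. In group 2 tumor 9 MAX was at 0.63 with neighbors at −0.42, and in group 2 tumor 6 VHL was at −0.61 with neighbors at 0.34. The Spearman correlation of these genes with their neighbors ran from 0.34 (NF1) to 0.64 (SDHB).

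**Figure D3:**
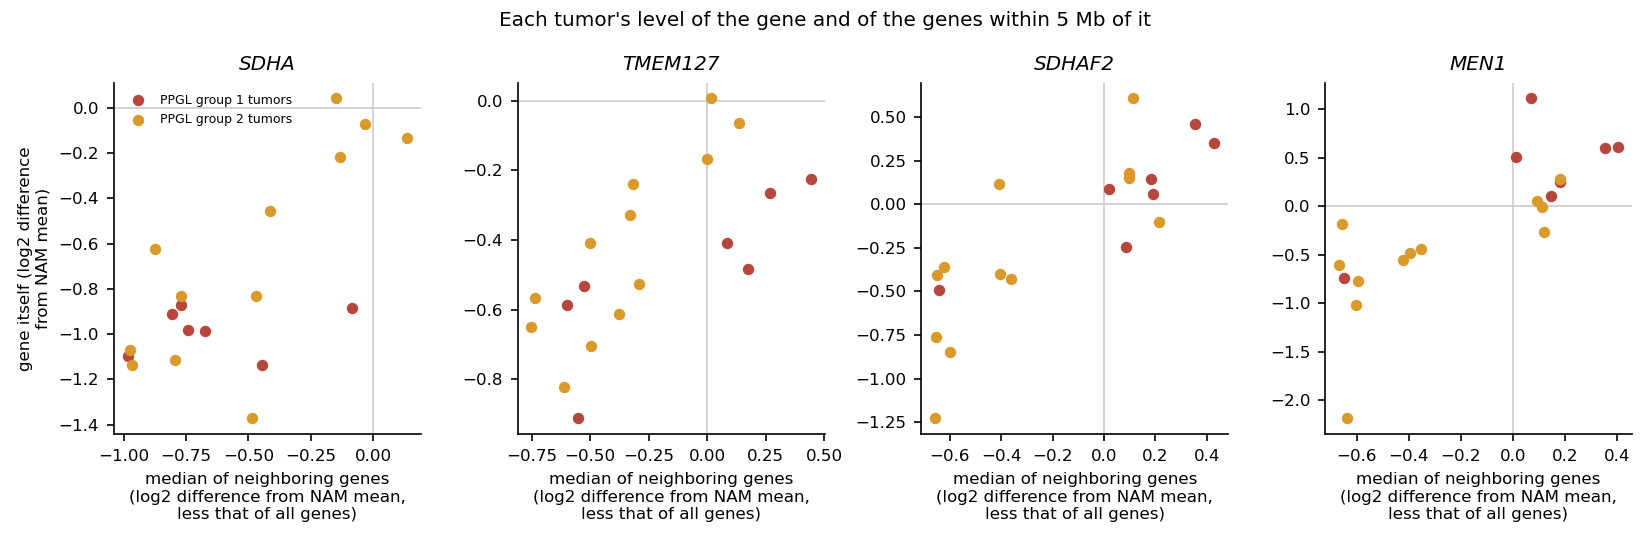
For SDHA, TMEM127, SDHAF2 and MEN1, the log2 difference of the gene from its NAM mean (y axis) against the median log2 difference of the genes within 5 Mb of it, relative to all genes of that tumor (x axis); each point is 1 tumor (7 of PPGL group 1, 12 of PPGL group 2). For these genes, tumors with low neighbors tend to be low for the gene, with a Spearman correlation from 0.60 for SDHA to 0.80 for SDHAF2. For the genes not shown it ran from 0.34 (NF1) to 0.64 (SDHB).

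The tumors varied more than the NAMs, with a median SD of log2 CPM over all genes of 0.66 in PPGLs and 0.37 in NAMs. TMEM127 was among the steadiest of all genes in both, with an SD of 0.25 in PPGLs (percentile 0.928 of 14766 genes) and 0.10 in NAMs (percentile 1.86). MEN1 changed place, from an SD of 0.13 in NAMs (percentile 5.68) to 0.74 in PPGLs (percentile 55.97). SDHC was the exception in the other direction, with an SD of 0.40 in NAMs and 0.34 in PPGLs. Within the tumors, SDHA had an SD of 0.10 in group 1 and 0.48 in group 2, while MAX had 0.86 in group 1 and 0.28 in group 2.

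Counted per tumor, the number of the 10 genes outside the NAM range ran from 4 (group 1 tumor 6 and group 2 tumors 2 and 10) to all 10 (group 2 tumor 6, with 8 below and 2 above). Group 1 tumor 1 and group 2 tumor 9 had 9 outside. Of all 14766 genes tested, the share outside the NAM range had a median of 56.1% over the tumors (39.5% to 67.9%), and of the 10 genes 60% (40% to 100%), so the number outside is near the background and is not a result about the 10 genes.

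The genes did not rise and fall together as a set. Over the 29 samples, with the mean of each group subtracted, the 45 pairs had a median Spearman correlation of −0.04, and 18 were positive. Over all pairs of genes tested the median was −0.0005. The highest was 0.48, for SDHAF2 and MEN1, which are near each other on chromosome 18, and the lowest was −0.46, for SDHB and TMEM127. Every pair among SDHA, SDHB, SDHC and FH was positive, from 0.13 (SDHB and SDHC) to 0.45 (SDHA and SDHC). These genes were picked out after the values had been seen.

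The genes most like each of the 10 by the same measure (Spearman correlation, n = 29, described with no test) were PSMD2 (0.87) and TTC14 (0.83) for SDHA, DCTD (0.73) and DAPK3 (0.71) for SDHB, and ISCU (0.86) and ANXA2 (0.80) for SDHC. For SDHAF2 they were COA1 (0.89) and PMPCB (0.87), for FH SCCPDH (0.80) and EMC3 (0.79), and for VHL NEGR1 (0.85) and ATCAY (0.76). For NF1 they were BMPR2 (0.81) and VGLL4 (0.80), for MAX KCNN4 (0.79) and ZNF579 (0.70), for TMEM127 BRSK2 (0.77) and ANAPC1 (0.76), and for MEN1 PACS1 (0.76) and INSL6 (0.74). Of these 20 genes, 8 lie on the chromosome of the gene they resemble, and 6 of the 10 genes have such a partner, where on average 3.33% of the genes tested lie on that chromosome. They are PSMD2 and TTC14, COA1 and PMPCB, SCCPDH, ATCAY, ANAPC1 and PACS1.

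Genes that work with the 10 were taken from lists by role and described by counts and medians, beside a median log2 FC of 0.13 over all genes in PPGL against NAM. A gene on more than 1 list is counted in each. The lists given held 94 distinct genes, of which 19.2% were called higher and 17.0% lower, near the 22.3% and 15.2% of all genes, so the counts per list are a description and not a result about the lists. Of the other complex II genes, SDHAF1 and SDHAF4 were found; SDHAF4, an assembly factor, was called higher (23.0 CPM in NAMs, SD 2.24, and 32.4 in PPGLs, SD 8.40; log2 FC 0.49, FDR-adjusted p = 0.0038), with 15 of 19 tumors above every NAM. SDHD was not found by name and was not analysed here. Of 9 other TCA cycle enzymes, 5 were called lower, with a median of −0.34. SDHAF4 was thus called higher in PPGLs as a group, where SDHA and SDHC were called lower, while SDHAF1 was not called (0.31, FDR-adjusted p = 0.116). The calls of SDHA and SDHC were lost with the cortical score as a covariate (−0.25, FDR-adjusted p = 0.296, and −0.53, FDR-adjusted p = 0.0585). A relation of SDHAF4 to these genes in single tumors was not tested.

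The TCA enzymes with the smallest FDR-adjusted p were SUCLG2 (log2 FC −1.32, FDR-adjusted p = 2.1e-06), SUCLG1 (−0.93, 0.00012) and CS (−0.42, 0.0031). They encode subunits of succinyl-CoA ligase, which makes succinate, and citrate synthase. SUCLG2 fell from a mean of 242 CPM in NAMs (SD 79.5) to 96.8 in PPGLs (SD 31.0), with 15 of 19 tumors below every NAM. Cortex markers were lower in the same comparison (9 of 10 called). The part of cortex RNA in the levels of the TCA enzymes was not tested.

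Of 21 other genes mutated in human PPGL, 2 were called higher and 7 lower, with a median of −0.27. RET, a receptor kinase, rose from a mean of 10.6 CPM in NAMs (SD 8.17) to 161 in PPGLs (SD 147), with 17 of 19 tumors above every NAM (log2 FC 3.93, FDR-adjusted p = 5.7e-05). EPAS1, which encodes a HIF subunit, rose from 341 (SD 100.1) to 753 (SD 378) with 13 tumors above every NAM (1.14, FDR-adjusted p = 0.0018). Lower were SUCLG2, given above, IDH1 (−1.03, FDR-adjusted p = 0.00095) and KIF1B (−0.56, FDR-adjusted p = 0.0147), while EGLN1 was not called (−0.07, FDR-adjusted p = 0.661). Changes in RET and EPAS1 exceeded in size those of all 10 genes.

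Of 11 genes of the VHL ligase and of oxygen sensing, 2 were called higher (EPAS1, and ELOC at 0.29, FDR-adjusted p = 0.0403) and 1 lower (EGLN2 at −0.47, FDR-adjusted p = 0.0080), with a median of −0.07. Of 11 HIF target genes, 3 were called higher and 1 lower, with a median of 0.25. CA9 was at 1.36 (FDR-adjusted p = 0.00015) and ANKRD37 at 1.64 (FDR-adjusted p = 0.00018), each above every NAM in at least 16 tumors, while PDK1 was at −0.99 (FDR-adjusted p = 0.0017).

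Of 8 ERK feedback genes, which lie downstream of RAS and so of NF1, 1 was called lower, ETV4 (−1.78, FDR-adjusted p = 0.0019), with a median of 0.07. For TMEM127, the list of 15 mTORC1 genes held 2 called higher, RRAGD (1.55, FDR-adjusted p = 1.0e-05; 18 of 19 tumors above every NAM) and RPTOR (0.44, FDR-adjusted p = 0.0075), and 1 lower, RRAGA (−0.34, FDR-adjusted p = 0.0286), with a median of 0.03. Most genes on these lists were not called.

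For MAX, the list of 11 genes of the MYC-MAX-MXD network held 3 called higher and 1 lower, with a median of 0.29. MXD3 was at 2.21 (FDR-adjusted p = 0.00039), MXD1 at 1.00 (FDR-adjusted p = 0.00069) and MLXIPL at −2.86 (FDR-adjusted p = 0.0017). For MEN1, the list of 11 menin partners and targets held 6 called higher and 1 lower, with a median of 0.34. PSIP1 was at 0.69 (FDR-adjusted p = 0.0022) and RBBP5 at 0.47 (FDR-adjusted p = 0.0062), while JUND, which menin binds, was at −0.95 (FDR-adjusted p = 0.0041). These lists had the highest median apart from complex II partners (0.40, over 2 genes).

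Between the tumor groups 2 of the 94 genes were called higher (2.13%) and 3 lower (3.19%), where 3.97% and 2.95% of all genes tested were, so the counts are not a result about the lists. The 5 were named after their values had been seen. With the cortical score as a covariate edgeR called 0 of all genes between the groups, these 5 included (1511 genes at an unadjusted p below 0.05), and with a replicate block it called 47 of all genes. That block used sample numbers, which do not pair the samples, so its lower count says nothing about these genes. Higher in group 1 were MET (log2 FC 2.17, FDR-adjusted p = 0.0275) and MXD3 (1.42, FDR-adjusted p = 0.0632). Lower in group 1 were DUSP4 (−2.69, FDR-adjusted p = 0.0366), DUSP5 (−3.47, FDR-adjusted p = 0.0219) and MLXIPL (−4.37, FDR-adjusted p = 0.0159). MLXIPL was at a mean of 54.9 CPM in NAMs, 11.7 in group 2 and 0.559 in group 1. MET was at a mean of 63.9 CPM in NAMs, 60.9 in group 1 and 13.5 in group 2. Against NAM it was not called in group 1 (log2 FC −0.075, FDR-adjusted p = 0.926) and was called lower in group 2 (−2.25, FDR-adjusted p = 0.00038).

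Other cell types were followed by marker lists in PPGL against NAM. All 6 proliferation markers were called higher, with a median log2 FC of 3.08, and their summed level had a median of 13.6 CPM in NAMs (3.35 to 55.8), 119 in group 1 (16.3 to 1219) and 49.0 in group 2 (24.7 to 140.3). Group 1 tumor 7, which had the lowest SDHB and the highest MAX and MEN1, was the highest of all in proliferation markers, of which TOP2A was the most abundant (mean 69.2 CPM in PPGLs, SD 147, and 35.9 without that tumor). Of 6 fibroblast markers 4 were called higher, with a median of 2.20; their sum had a median of 412 CPM in NAMs (266 to 658), 511 in group 1 (154 to 2382) and 955 in group 2 (407 to 25290, in tumor 11), and COL3A1 was the most abundant in PPGLs (mean 818, SD 1799, and 421 without tumor 11). Of 6 endothelial markers 3 were called lower, with a median of −0.45 and a summed median of 708 CPM in NAMs and 509.5 in PPGLs, led in PPGLs by PECAM1 (mean 153, SD 86.8).

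Of 6 leukocyte markers 2 were called higher and 1 lower, with a median of 0.41 and a summed median of 175 CPM in NAMs and 105 in PPGLs, led by CSF1R (mean 57.7 in PPGLs, SD 40.0). Of 4 Schwann and sustentacular cell markers tested, 0 were called by edgeR, where 1 had an unadjusted p below 0.05, and 3 by the Mann-Whitney U-test, with a median of −1.0. Of 2 hepatocyte markers tested 1 was called higher and 1 lower, with a median of 0.68 and a summed median over 4 markers of 82.5 CPM in NAMs and 52.9 in PPGLs, led in PPGLs by SERPINA1 (mean 52.8, SD 140, which rested on group 2 tumor 11 and was 21.1 without it). The part of these cell types in the levels of the 10 genes was not tested.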

How the data were processed

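The authors made stranded mRNA libraries, used STAR with CanFam3.1 for alignment, and deposited raw counts per gene over exons. The table has the layout of featureCounts while the notes list HTSeq, and the handling of strand and of reads with several matches is not stated in the sources used here. Counts were fitted with edgeR 4.0.16 in R 4.3.3 (filterByExpr with a minimum count of 10 and total of 15, TMM, quasi-likelihood F test), with Benjamini-Hochberg adjustment over all genes tested. PPGL against NAM used 2 groups, group 1 against group 2 the tumors alone, and each group against NAM a fit of 3 groups. The code was tested on simulated data with planted changes larger than those of any of the 10 genes. That test does not cover changes of their size. Alternatives were DESeq2 1.42.0 (size factors, Wald test), library totals, the exact Mann-Whitney U-test on CPM, other filters, a replicate block (on sample numbers, which do not pair the samples), the cortical score (mean log2 CPM, prior count 2) as a covariate and leaving out samples. Named genes were the 10, RET, EPAS1, EGLN1 and KIF1B, the 3 genes called with the smallest adjusted p in PPGL against NAM on each list by role given, the most abundant gene of each marker list given, and the 2 genes most like each of the 10. Also named, after their values were seen, were the chromaffin markers PNMT, TH, DDC, PHOX2A, SYP and HAND2. SDHAF1 and the listed genes called between the tumor groups were named as well. Genes and lists were chosen with earlier results of these data known. Figures were drawn with matplotlib 3.10.9. Promoter and protein sequences of these genes were not among the sources used here and were not analysed.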

Additional observations from a re-analysis of the deposited data

Results flagged for a closer look

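MEN1 was called different between the tumor groups, with a log2 FC of 0.84 in PPGL group 1 over PPGL group 2 (FDR-adjusted p = 0.0772). It was above NAM in group 1 (log2 FC 0.43) and below NAM in group 2 (−0.42), and neither of these was called. The groups were drawn from a principal component analysis of these samples, so the p value describes the split, and the call was lost without any of 9 single tumors. It was also lost by the Mann-Whitney U-test (FDR-adjusted p = 0.151), with a replicate block (log2 FC 0.75, FDR-adjusted p = 0.324) and once the cortical score was a covariate (0.68, FDR-adjusted p = 0.715), in a range of 0.0122 to 0.715 over its alternatives. As the block used sample numbers, which do not pair the samples, the call lost with it says nothing about MEN1. Genes around MEN1 on chromosome 18 were lower in 8 of 12 group 2 tumors and in 1 of 7 group 1 tumors; their part in the difference was not tested. In the 20 sets of values tested for a sample far apart from its group (each of the 10 genes in NAM and in group 1), none had one. Group 2, with 12 tumors, was not tested in this way; its lowest MEN1 was 10.8 CPM in tumor 12, with the second lowest at 24.5.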

How the results depend on the processing

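The 40 log2 FCs of the 10 genes in 4 comparisons gave 340 values under the alternatives other than leaving out samples. Values with a replicate block are included, although sample numbers do not pair the samples. Of the 340, 308 kept their direction and their side of the threshold, 19 kept their direction but were no longer called, 3 kept it and became called, and 10 changed sign. The Mann-Whitney values use the edgeR log2 FC, so in 40 of the 340 only the call was free to change. Of those 10, SDHA and FH also lost their calls in group 1 against NAM, where the cortical score was the covariate. The cause of these changes was not tested.

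In PPGL against NAM, 2 genes were called higher with library totals only, and MEN1 turned to 0.0407. With the cortical score as a covariate 0 were called higher and 1 lower by edgeR, with 3 at an unadjusted p below 0.05 (DESeq2 without the score called 5). MEN1 then moved to −0.72 (FDR-adjusted p = 0.0658, range over its alternatives 0.0658 to 0.979). As the mean of both groups in the fit of 3 groups, MEN1 was at 0.0075. Leaving out samples gave 1 to 2 genes called higher, and MEN1 from −0.14 to 0.0223, above 0 without group 2 tumor 1 (0.0011) or 12 (0.0223).

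In group 1 against group 2, no gene (0) was called higher by the Mann-Whitney U-test (1 at an unadjusted p below 0.05), with a replicate block (2) or with the covariate (0), and DESeq2 called 1. With the covariate SDHA was at 0.40, SDHC at 0.0151, FH at 0.47 and NF1 at −0.16. Leaving out tumors gave 0 to 2 called higher, and NF1 from −0.0038 (without group 1 tumor 7) to 0.15.

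In group 1 against NAM, 0 were called higher by the Mann-Whitney U-test (5 genes at an unadjusted p below 0.05), 1 without a filter and 1 with a replicate block. With the covariate 0 were called higher and 0 lower (1 at an unadjusted p below 0.05), while SDHA was at 0.32, FH at 0.42 and NF1 at −0.18. Leaving out tumors, chosen after seeing the data, gave 1 to 2 called higher, and SDHAF2 from −0.0046 (without tumor 4) to 0.15. In group 2 against NAM, 1 was called higher by the Mann-Whitney U-test, and with the covariate 1 was called lower and NF1 was at −0.0027.

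Over all genes, 1015 were called between the tumor groups, against 1793 by DESeq2, 386 by the Mann-Whitney U-test, 2567 in the fit of 3 groups, 47 with a replicate block and 0 with the covariate (1511 at an unadjusted p below 0.05). Leaving out group 1 tumor 7 gave 525 and group 2 tumor 4 gave 674. The covariate left 2142 in PPGL against NAM, 11 in group 1 against NAM and 1031 in group 2 against NAM, where 5541, 5331 and 5005 were called without it.

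Library totals moved the median log2 FC of all genes in group 1 against NAM from 0.13 to 0.24. Sample numbers do not pair the samples: over shared numbers, r ran from −0.07 to 0.04 between NAM and group 1, from −0.23 to 0.25 between NAM and group 2 and from −0.12 to 0.05 between the tumor groups. With the number as a replicate block, MEN1 in group 1 against group 2 was at 0.75 (FDR-adjusted p = 0.324) and VHL in group 1 against NAM at 0.43 (FDR-adjusted p = 0.173). Such a block uses up degrees of freedom without pairing anything, so calls lost with it say nothing about the genes. Depth did not limit these genes, whose lowest count was 192.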
